A study of Mus musculus with 36 samples.

Results

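Astrocytes were followed through 29 genes, 21 that astrocytes use for their filaments, water and ion balance, glutamate uptake, metabolism and signalling, and 8 that rise when astrocytes react to injury or inflammation. A gene was taken when the annotation of the array gives it as the single gene symbol of a transcript cluster, the unit that the array summarises as 1 gene. Of 65956 clusters, 28 carried a member, 1 cluster for each. *Glul*, which encodes the enzyme that turns glutamate into glutamine, shares its cluster with other symbols and was read at the exon level only. *Aqp4* has its symbol listed more than once on its cluster and was counted as having a single symbol.

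Male C57BL/6 mice of about 8 weeks received diazepam (DZP), a benzodiazepine that enhances the GABA-A receptor, or Intralipid, a fat emulsion used as vehicle (Ctrl), by intraperitoneal injection 2 times a day for 10 days. The dose is written as 5 mg/ml in the sample labels and as 5 mg/kg in the methods. By the methods, mice of both treatments were anesthetized with medetomidine, midazolam, and butorphanol before perfusion, so Ctrl mice also received midazolam. Tissue punches of the 3 regions were taken from brains perfused with artificial cerebrospinal fluid, and 100 ng of total RNA was hybridised to Affymetrix Mouse Transcriptome Arrays 1.0, with 3 arrays for each of DZP cortex, DZP hippocampus, DZP amygdala, Ctrl cortex, Ctrl hippocampus, and Ctrl amygdala. Arrays of different regions may come from the same mouse, the labels do not say which, and the only controls are vehicle-injected mice.

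The array medians lay between 5.86 and 6.03 (signal intensity, log2), and each array's mean over its 5222 negative controls lay from 6.71 to 6.80. The means of 8 members over the 18 arrays lay below that range, namely *Gja1*, *Id3*, *Cd44*, *Timp1*, *Steap4*, *S1pr3*, *Aspg*, and *Hspb1*. The control means also lie above the median of every array, so they mark no detection limit. Arrays of a group correlated with r between 0.9932 and 0.9965 across clusters, which are not independent replicates. All 8 markers of hippocampal fields were higher in the hippocampus than in the cortex in DZP mice and in Ctrl mice. Of 9 striatal markers, 8 were higher in the DZP amygdala than in the DZP cortex, and 7 were higher in the Ctrl amygdala than in the Ctrl cortex (1 was lower). *Ttr*, which choroid plexus makes in large amounts, was at 15.47, 15.71, and 7.19 in the DZP hippocampus and at 6.78, 16.42, and 12.97 in the Ctrl hippocampus, and it was at 7.42, 7.55, and 8.16 in the DZP amygdala and at 7.41, 8.19, and 16.43 in the Ctrl amygdala. The part of striatal and choroid plexus RNA in the results below was not tested.

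Astrocytes tile the brain and wrap synapses and blood vessels with fine processes. They clear glutamate and potassium released by neurons, pass water through aquaporin 4 at the vessel wall, and join into networks through gap junctions. When tissue is injured or inflamed they react, enlarging their intermediate filaments and turning on secreted and cytokine-responsive genes, several of them through STAT3. Astrocytes are known to differ between brain regions, and in the mouse GFAP is far more abundant in hippocampal than in cortical astrocytes.

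The clearest differences among these genes were between brain regions. In Ctrl mice, 6 members were higher and 2 lower in the hippocampus than in the cortex (limma, Benjamini-Hochberg adjusted p under 0.05 over all clusters), against 8.13% of all clusters called higher and 6.89% called lower. In DZP mice, 10 were higher and 2 lower, against 6.57% and 5.69% of all clusters. *Gfap*, the intermediate filament gene that most often marks astrocytes, and *Serpina3n*, a secreted serine protease inhibitor of the astrocyte reaction, had the largest differences. In bulk RNA, fewer astrocytes and less RNA per astrocyte cannot be told apart, which holds for every level given here.

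*Gfap* was at 11.85, 11.58, and 11.58 in the DZP hippocampus, against 8.95, 9.12, and 9.26 in the DZP cortex. It was at 11.90, 11.58, and 11.64 in the Ctrl hippocampus, against 9.28, 9.07, and 8.76 in the Ctrl cortex. Every hippocampal array lay above every cortical array, by 2.56 ± 0.20 in DZP mice (log2 difference ± SE, adjusted p = 2.1e-07) and by 2.67 ± 0.20 in Ctrl mice (adjusted p = 1.12e-07). In the amygdala *Gfap* was at 8.83, 9.39, and 9.64 in DZP mice and at 9.19, 9.93, and 9.46 in Ctrl mice, again wholly below the hippocampus (-2.39 in DZP mice and -2.18 in Ctrl mice). The amygdala and the cortex did not differ past the threshold in either treatment (0.18, adjusted p = 0.585, in DZP mice and 0.49, adjusted p = 0.131, in Ctrl mice). *Vim*, the other intermediate filament gene, was lower in the amygdala than in the hippocampus in DZP mice (-0.60, adjusted p = 0.00645), and in Ctrl mice the difference of -0.42 did not pass (adjusted p = 0.0522).

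*Serpina3n* was likewise highest in the hippocampus. It was at 10.85, 10.85, and 11.37 in the DZP hippocampus and at 11.64, 11.02, and 10.68 in the Ctrl hippocampus, and no array of another region exceeded 9.89. The hippocampus exceeded the cortex by 1.68 ± 0.33 in DZP mice (adjusted p = 0.00228) and by 2.51 ± 0.33 in Ctrl mice (adjusted p = 4.82e-05), and the difference of the amygdala from the hippocampus was -2.28 in DZP mice and -2.55 in Ctrl mice. The amygdala and the cortex did not differ past the threshold (-0.59, adjusted p = 0.229, in DZP mice and -0.04, adjusted p = 0.961, in Ctrl mice). At the exon level, all 10 probe sets of *Serpina3n* had a higher mean in the Ctrl hippocampus than in the Ctrl cortex (median difference 2.65), as did 23 of 24 probe sets of *Gfap* (median 2.87).

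*Agt*, which encodes angiotensinogen, the precursor of angiotensin peptides that astrocytes secrete in brain, had another order. It was at 8.56, 9.64, and 9.40 in the DZP amygdala, at 8.45, 8.88, and 8.42 in the DZP hippocampus, and at 7.03, 7.29, and 7.23 in the DZP cortex. In Ctrl mice it was at 9.39, 9.43, and 8.50 in the amygdala, at 8.03, 8.08, and 8.47 in the hippocampus, and at 7.31, 7.04, and 7.23 in the cortex. The amygdala exceeded the cortex by 2.02 ± 0.26 in DZP mice (adjusted p = 3.7e-05) and by 1.91 ± 0.26 in Ctrl mice (adjusted p = 5.73e-05), with no overlap of arrays. The amygdala lay above the hippocampus by 0.91 in Ctrl mice (adjusted p = 0.034), and the difference of 0.62 in DZP mice, whose arrays overlapped, did not pass (adjusted p = 0.161). The lowest Ctrl amygdala array for *Agt* is the one with *Ttr* at 16.43, and the lowest DZP amygdala array for *Agt*, at 8.56, has *Ttr* at 7.42.

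**Figure D1:**
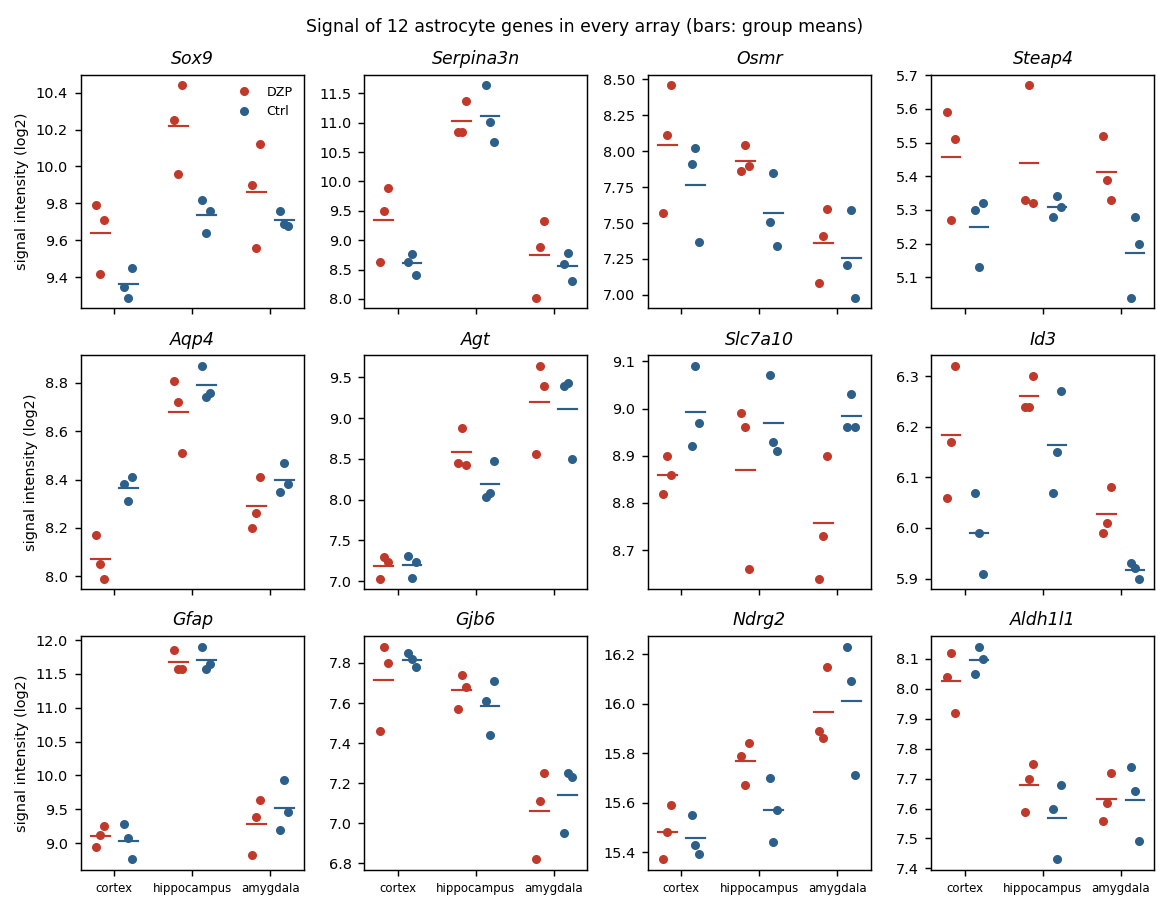
Signal intensity (log2) of 12 astrocyte genes in each of 18 arrays, by region on the horizontal axis, with DZP arrays left of Ctrl arrays, 1 point per array and a bar at the mean of 3. The hippocampal points of *Gfap* and *Serpina3n* lie above all others, the amygdala and hippocampus points of *Agt* lie above its cortex points, and DZP and Ctrl points overlap in most panels.

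Among the genes for water passage and membrane junctions, *Aqp4*, the water channel of astrocyte endfeet, was higher in the hippocampus than in the cortex by 0.61 in DZP mice (adjusted p = 9.4e-05) and by 0.42 in Ctrl mice (adjusted p = 0.00242). From the median of its exon-level probe sets in each array, these differences were 0.28 (adjusted p = 0.409) in DZP mice and 0.14 (adjusted p = 0.733) in Ctrl mice, neither called. Compared singly in Ctrl mice, 21 of its 30 probe sets had a higher mean in the hippocampus, with a median difference of 0.46. Of the 30, 6 were called higher and 0 lower. *Gja1*, which encodes connexin 43, was higher in the hippocampus by 0.21 in DZP mice (adjusted p = 0.0425) and by 0.32 in Ctrl mice (adjusted p = 0.00213). The call of *Gja1* in DZP mice was lost in 12 of 15 alternatives (0.09 to 0.23, adjusted p up to 0.912), and that in Ctrl mice in 1, the exon-level medians (adjusted p = 0.636). Compared singly in Ctrl mice, 15 of the 19 probe sets of *Gja1* had a higher mean in the hippocampus, and 3 were called higher and 0 lower. *Gjb6*, which encodes connexin 30, the other astrocyte connexin, was at 6.82, 7.11, and 7.25 in the DZP amygdala, against 7.46, 7.88, and 7.80 in the DZP cortex. It was at 6.95, 7.25, and 7.23 in the Ctrl amygdala, against 7.85, 7.82, and 7.78 in the Ctrl cortex. The amygdala arrays thus lay wholly below the cortex arrays in both treatments (-0.65, adjusted p = 0.00165, in DZP mice and -0.67, adjusted p = 0.00115, in Ctrl mice). The hippocampus had *Gjb6* at 7.57, 7.74, and 7.68 in DZP mice and at 7.61, 7.44, and 7.71 in Ctrl mice, above every amygdala array of the same treatment (adjusted p = 0.00451 in DZP mice and 0.0333 in Ctrl mice). *Mlc1*, a membrane protein of astrocyte junctions, was higher in the DZP hippocampus than in the DZP cortex by 0.59 (adjusted p = 0.000201), whereas the difference in Ctrl mice was 0.17 (adjusted p = 0.258).

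Of the glutamate transporters, *Slc1a3* (GLAST) was higher in the amygdala than in the cortex, by 0.37 in DZP mice (adjusted p = 0.0223) and 0.43 in Ctrl mice (adjusted p = 0.0109), whereas *Slc1a2* (GLT-1) was lower (-0.20, adjusted p = 0.0315, in DZP mice and -0.28, adjusted p = 0.00513, in Ctrl mice). The median of the exon-level probe sets of *Glul* differed between the amygdala and the cortex by -0.37 in DZP mice, which missed the threshold (adjusted p = 0.0568), and by -0.45 in Ctrl mice (adjusted p = 0.0264). *Slc4a4*, a sodium bicarbonate cotransporter, was higher in the hippocampus than in the cortex by 0.68 in DZP mice and by 0.52 in Ctrl mice (adjusted p = 0.000178 and 0.00177).

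*Aldh1l1*, a folate enzyme that marks astrocytes across the brain, ran the other way from *Gfap*. It was at 7.59, 7.70, and 7.75 in the DZP hippocampus, against 8.04, 8.12, and 7.92 in the DZP cortex. In Ctrl mice it was at 7.60, 7.43, and 7.68 in the hippocampus, against 8.05, 8.14, and 8.10 in the cortex, so that the arrays did not overlap in either treatment. The differences were -0.35 in DZP mice (adjusted p = 0.0114) and -0.53 in Ctrl mice (adjusted p = 0.000357). In the amygdala *Aldh1l1* was at 7.56, 7.62, and 7.72 in DZP mice and at 7.74, 7.66, and 7.49 in Ctrl mice, also wholly below the cortex (-0.40 in DZP mice and -0.47 in Ctrl mice). *Ndrg2*, a cytoplasmic protein of astrocytes, was highest in the amygdala, at 15.89, 15.86, and 16.15 in DZP mice and at 16.23, 16.09, and 15.71 in Ctrl mice. In the cortex it was at 15.37, 15.48, and 15.59 in DZP mice and at 15.55, 15.43, and 15.39 in Ctrl mice. The amygdala exceeded the cortex by 0.49 in DZP mice and by 0.55 in Ctrl mice (adjusted p = 0.00974 and 0.0041). The hippocampus lay lower than the amygdala, at 15.79, 15.67, and 15.84 in DZP mice, where the amygdala difference of 0.20 did not pass, and at 15.70, 15.44, and 15.57 in Ctrl mice, where 0.44 passed (adjusted p = 0.0285).

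In the amygdala against the cortex, 5 members were higher and 5 lower in DZP mice (13.1% and 7.27% of all clusters), and 3 were higher and 3 lower in Ctrl mice (8.87% and 6.65%). In the amygdala against the hippocampus, 0 were higher and 5 lower in DZP mice (6.25% and 4.46%), and 2 were higher and 5 lower in Ctrl mice (5.77% and 4.57%). Some members were called in both treatments, which are different mice read in 1 fit. This overlap was counted for the members only and not for all clusters, so whether it is particular to these genes is not known. Of the members called in the hippocampus against the cortex, 7 were called in the same direction in both treatments, which is 58.3% of the calls in DZP mice and 87.5% of those in Ctrl mice. For the amygdala against the cortex, 6 were shared (60% and 100%), and for the amygdala against the hippocampus 4 were shared (80% and 57.1%). Of the other calls named above, those of *Gjb6* and *Ndrg2* between the amygdala and the hippocampus of Ctrl mice were each lost in 7 of 15 alternatives. That of *Agt* was lost in 4. Between the amygdala and the cortex of DZP mice, that of *Slc1a2* was lost in 6, that of *Slc1a3* in 5, and that of *Ndrg2* in 3. The calls of *Slc1a2* and *Slc1a3* between the amygdala and the cortex of Ctrl mice were each lost in 3. In DZP mice, so were those of *Vim* between the amygdala and the hippocampus and of *Aldh1l1* between the hippocampus and the cortex. The other gene-level calls named above held or were lost in 1 or 2. Several calls that were counted but not named were less stable. That of *Acsbg1* between the hippocampus and the cortex of Ctrl mice was lost in 10 of 15. That of *Slc4a4* between the amygdala and the hippocampus of Ctrl mice was lost in 8. That of *Osmr* between the amygdala and the cortex of DZP mice was lost in 7. Some counts depended on single replicate numbers: without Ctrl number 1 in all regions, the amygdala and the hippocampus of Ctrl mice differed in 2 members, and without DZP number 2, the amygdala and the cortex of DZP mice differed in 4. The 9 oligodendrocyte markers moved with the hippocampal calls, all 9 being higher in the hippocampus than in the cortex in both treatments, with summed signals of 24113 to 29352 in the DZP hippocampus against 8448 to 10851 in the DZP cortex, and 21979 to 27554 in the Ctrl hippocampus against 8728 to 9486 in the Ctrl cortex. Their part in the calls was not tested.

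**Figure D2:**
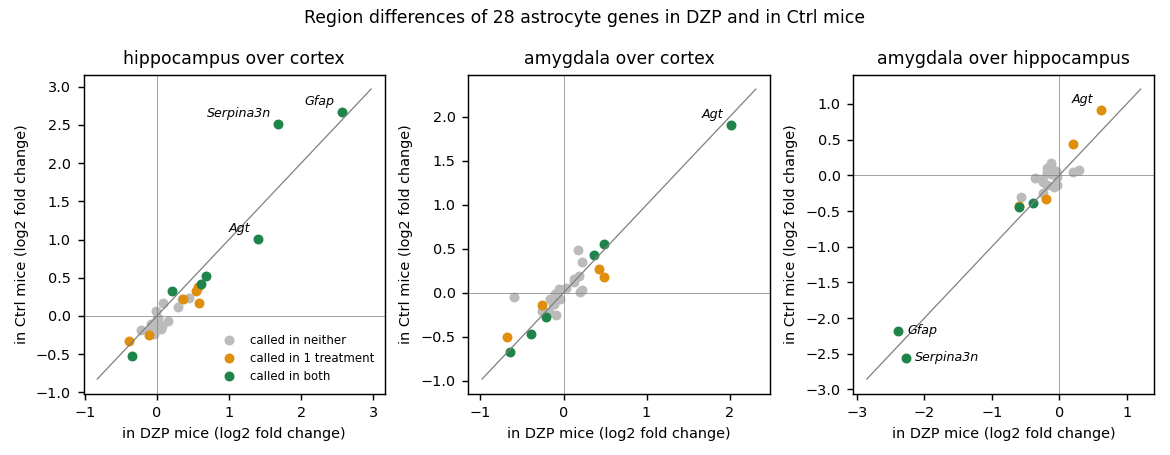
Log2 differences between regions for 28 members, in DZP mice (horizontal axis) against Ctrl mice (vertical axis), 1 point per gene, with the line of equal values and colours for the calls. *Gfap* and *Serpina3n* stand farthest out in both contrasts with the hippocampus and *Agt* in the contrast of amygdala with cortex, each near the line except *Serpina3n*, whose hippocampus over cortex difference was 1.68 in DZP mice and 2.51 in Ctrl mice.

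Of the 29 genes, 26 have a promoter window in the RefSeq table of build GRCm38.p6, from 250 bases before to 50 bases after the transcript start, with several windows for some genes. Cytokine signals to astrocytes pass partly through STAT3, and STAT proteins bind palindromes of the kind TTCNNNGAA, here searched on both strands, which read the same on either. The motif was in the windows of 6 of these 26 genes (23.1%), against 9.55% of all 27025 genes with a window. The stricter TTCCNGGAA, every match of which is also a match of TTCNNNGAA, was in the windows of 3 (11.5%), against 1.35%. These are counts of letters and were not tested. *Serpina3n*, whose region difference ranked between those of *Gfap* and *Agt*, had no match to either motif. Among the genes of the astrocyte reaction only *Steap4* had a match. *Acsbg1*, *Ntsr2* and *Slc1a3*, outside that group, held TTCNNNGAA alone. The 3 genes with the stricter motif are *Gfap*, which had the largest region difference, *Agt*, which had the third largest, and *Steap4*, a metal reductase of the astrocyte reaction. Their sequences are shown as the members that hold the stricter motif. They run from 250 bases before the transcript start up to it, or for *Gfap*, where the motif spans the start, to the last base of the motif, with the TTCCNGGAA match in capitals. The match begins 2 bases before the start in *Gfap*, 172 before it in *Agt*, and 116 before it in *Steap4*.
Gfap, chr11:102897194-102897450, minus strand: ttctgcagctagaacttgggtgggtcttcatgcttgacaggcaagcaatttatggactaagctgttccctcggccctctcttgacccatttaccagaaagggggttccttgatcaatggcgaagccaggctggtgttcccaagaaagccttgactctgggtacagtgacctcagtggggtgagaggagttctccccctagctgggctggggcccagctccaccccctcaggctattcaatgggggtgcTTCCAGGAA
Agt, chr8:124569707-124569956, minus strand: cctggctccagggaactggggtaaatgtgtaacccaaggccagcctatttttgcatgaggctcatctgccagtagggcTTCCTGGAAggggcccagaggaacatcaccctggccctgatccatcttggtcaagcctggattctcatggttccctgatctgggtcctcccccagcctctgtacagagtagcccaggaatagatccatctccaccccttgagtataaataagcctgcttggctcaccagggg
Steap4, chr5:7960222-7960471, plus strand: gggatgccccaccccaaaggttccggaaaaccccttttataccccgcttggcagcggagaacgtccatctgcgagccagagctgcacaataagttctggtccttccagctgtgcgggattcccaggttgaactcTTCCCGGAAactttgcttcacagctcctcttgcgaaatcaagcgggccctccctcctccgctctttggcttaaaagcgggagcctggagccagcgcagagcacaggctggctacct

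Chronic DZP moved no astrocyte member past the threshold in any region. The count of members called was 0 of 28 in the cortex, hippocampus, and amygdala by limma, where 0.0364%, 0.0728%, and 0% of all clusters were called. The criteria of the methods, an unadjusted P below 0.05 by one-way ANOVA and a fold change of at least 1.5, also selected 0 members in each region, against 0.453%, 1.2%, and 0.214% of all clusters in cortex, hippocampus, and amygdala. At an unadjusted p under 0.05, limma had 2 members higher and 3 lower in the DZP cortex (3.31% and 4.52% of all clusters), 4 higher and 0 lower in the DZP hippocampus (4.42% and 6.8%), and 1 higher and 1 lower in the DZP amygdala (6.33% and 3.07%). The median 95% confidence interval of a member reached 0.223 to either side of its log2 difference.

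The means of the members were not spread alike in the regions. In the DZP hippocampus, 20 members had a higher mean and 8 a lower one than in the Ctrl hippocampus, with a median log2 difference of 0.10 (all clusters -0.01). In the cortex 14 had a higher and 14 a lower mean (median 0.00, all clusters 0.00), and in the amygdala 15 and 13 (median 0.00, all clusters 0.03). Every DZP array lay above every Ctrl array for 0 members in the cortex, 4 in the hippocampus (*Slc1a3*, *Mlc1*, *Osmr*, and *Sox9*) and 3 in the amygdala (*Id3*, *Aspg*, and *Steap4*), against 7.22%, 6.45%, and 8.16% of all clusters. Every DZP array lay below every Ctrl array for 5 in the cortex (*Aqp4*, *Mlc1*, *Slc4a4*, *Slc7a10*, and *Slc1a2*), 0 in the hippocampus, and 1 in the amygdala (*Slc7a10*), against 7.34%, 9.69%, and 4.91%. No member was separated in all 3 regions.

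*Gfap*, with its arrays given above, did not pass in any region. Its log2 difference was 0.07 (95% confidence interval -0.36 to 0.51) for cortex, -0.03 (-0.47 to 0.40) for hippocampus, and -0.24 (-0.68 to 0.19) for amygdala, and DZP and Ctrl arrays overlapped in every region. At the exon level 21 of 24 probe sets of *Gfap* had a lower mean in the DZP amygdala than in the Ctrl amygdala, and none was called. Probe sets of a gene share the same RNA and are not replicates.

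*Sox9*, a transcription factor that sets and keeps astrocyte identity, had the largest mean difference over regions. It was at 10.25, 9.96, and 10.44 in the DZP hippocampus, against 9.82, 9.64, and 9.76 in the Ctrl hippocampus. In the cortex it was at 9.79, 9.42, and 9.71 in DZP mice, against 9.35, 9.29, and 9.45 in Ctrl mice, and in the amygdala at 9.90, 9.56, and 10.12, against 9.76, 9.69, and 9.68. The hippocampal arrays did not overlap, whereas 1 DZP array in the cortex and 1 in the amygdala fell within or below the Ctrl range. The difference was 0.47 ± 0.14 in the hippocampus (unadjusted p = 0.00344, adjusted p = 0.19), 0.28 (adjusted p = 0.665) for cortex and 0.15 (adjusted p = 0.767) for amygdala. All 14 exon-level probe sets of *Sox9* had a higher mean in the DZP hippocampus (median 0.51), as did 12 of 14 in the DZP cortex and 10 of 14 in the DZP amygdala, and 0 were called.

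The DZP means of the *Aqp4* cluster were the lower ones in all 3 regions. It was at 8.17, 8.05, and 7.99 in the DZP cortex, against 8.38, 8.31, and 8.41 in the Ctrl cortex. It was at 8.81, 8.72, and 8.51 in the DZP hippocampus, against 8.87, 8.74, and 8.76 in the Ctrl hippocampus, and at 8.20, 8.26, and 8.41 in the DZP amygdala, against 8.35, 8.47, and 8.38 in the Ctrl amygdala. Only the cortical arrays separated. The difference was -0.30 ± 0.09 in the cortex (unadjusted p = 0.00332, adjusted p = 0.372), and -0.11 in each of the other regions. From the medians of the exon-level probe sets the direction turned in the hippocampus (0.07) and in the amygdala (0.04) and the cortical difference was -0.07. Of the 30 probe sets, 21 had a lower DZP mean in the cortex, 22 in the hippocampus, and 17 in the amygdala. Of the other genes for water and junctions, *Mlc1* had -0.19 in the cortex and 0.23 in the hippocampus (adjusted p = 0.634 and 0.339), with the arrays wholly below Ctrl in the first and wholly above in the second.

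*Slc7a10*, an exchanger of neutral amino acids that carries D-serine, also had the lower DZP mean in every region. It was at 8.82, 8.90, and 8.86 in the DZP cortex, against 8.92, 9.09, and 8.97 in the Ctrl cortex, and at 8.64, 8.73, and 8.90 in the DZP amygdala, against 8.96, 9.03, and 8.96 in the Ctrl amygdala, without overlap. In the hippocampus it was at 8.99, 8.96, and 8.66 in DZP mice, against 9.07, 8.93, and 8.91 in Ctrl mice. The differences were -0.14, -0.10, and -0.23 in cortex, hippocampus, and amygdala (adjusted p = 0.786, 0.757, and 0.471). In the amygdala 30 of its 34 exon-level probe sets were lower.

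*Id3*, a transcriptional inhibitor that responds to BMP signals, and *Agt* completed the members outside the reaction group with the largest mean differences. *Id3* was at 6.06, 6.17, and 6.32 in the DZP cortex, against 6.07, 5.99, and 5.91 in the Ctrl cortex. It was at 6.24, 6.24, and 6.30 in the DZP hippocampus, against 6.07, 6.15, and 6.27 in the Ctrl hippocampus, and at 5.99, 6.01, and 6.08 in the DZP amygdala, against 5.93, 5.92, and 5.90 in the Ctrl amygdala. Only the amygdala arrays separated, and the differences of 0.19, 0.10, and 0.11 did not pass (adjusted p = 0.547, 0.687, and 0.682). For *Agt* the hippocampal difference of 0.39 had a wide interval (-0.17 to 0.94), the cortical one was -0.01 and the amygdala one 0.09, and its arrays overlapped in every region.

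The remaining members outside the reaction group lay between -0.16 and 0.25. Of the 4 water and junction genes 0 had a higher DZP mean in the cortex, 2 in the hippocampus, and 0 in the amygdala. Of the 3 other transporters and pumps, *Slc4a4*, *Slc7a10*, and *Atp1b2*, a sodium pump subunit, these numbers were 0, 1, and 1. Of the 7 receptors, transcription factors, and signalling genes they were 5, 6, and 6, and the average over regions was higher in 7 of 7, with a median of 0.11 and 0 called. That group holds *Sox9*, *Id3*, *Agt*, and *Ndrg2* along with *Fgfr3*, a fibroblast growth factor receptor, *Ntsr2*, a neurotensin receptor, and *S100b*, a calcium binding protein. In the hippocampus *Fgfr3* had 0.22 and *Ntsr2* 0.25, with adjusted p of 0.449 and 0.604.

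**Figure D3:**
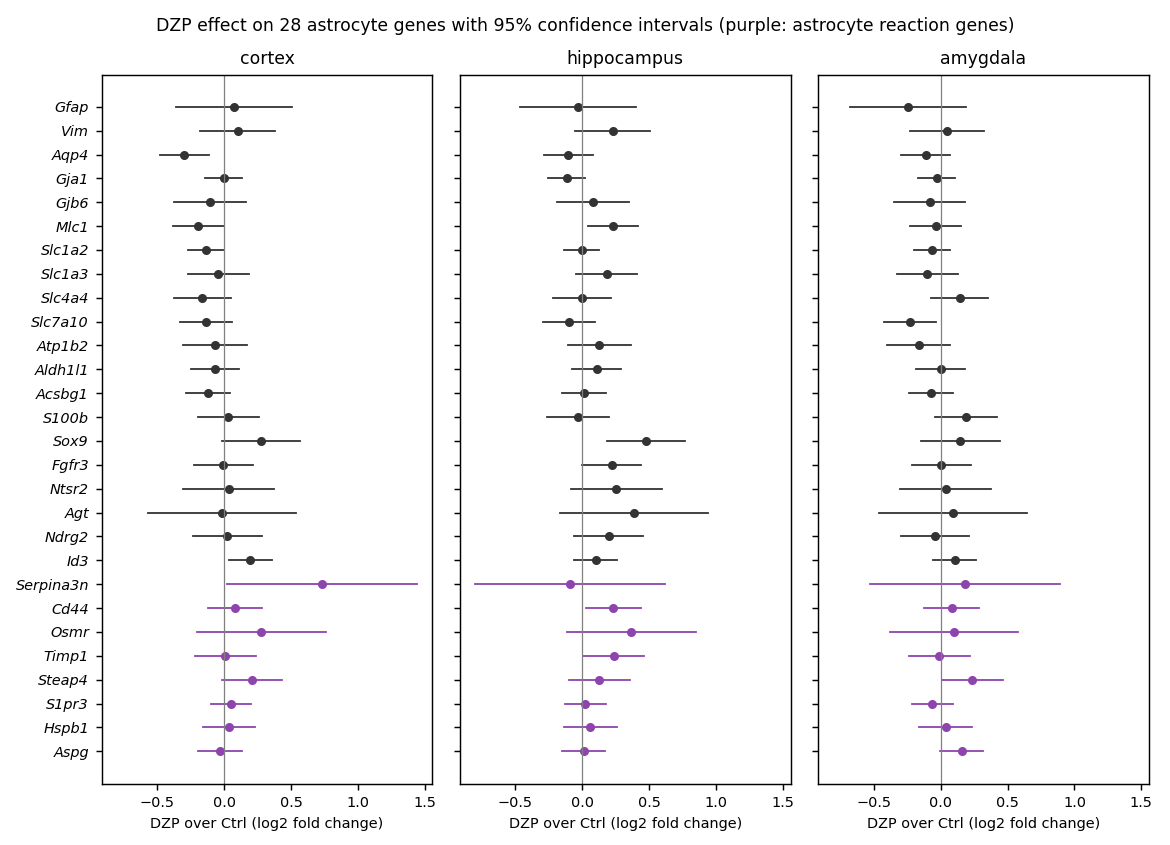
Log2 differences of DZP over Ctrl for 28 members in cortex, hippocampus, and amygdala, with 95% confidence intervals from the fit of 18 arrays. Most intervals span 0, and the intervals of *Serpina3n* are the widest, from 0.02 to 1.44 in the cortex.

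The 8 genes of the astrocyte reaction had mostly higher DZP means, none of them called. *Serpina3n*, *Osmr*, *Steap4*, *Cd44*, *Timp1*, *S1pr3*, *Hspb1* and *Aspg* encode, in that order, a protease inhibitor, the oncostatin M receptor, a metal reductase, a hyaluronan receptor, a metalloproteinase inhibitor, a sphingosine phosphate receptor, a small heat shock protein, and an asparaginase. Of these 8, 7 had a higher DZP mean in the cortex, 7 in the hippocampus, and 6 in the amygdala, and the average over regions was higher in 8 of 8 (log2 differences 0.00 to 0.28). The medians were 0.07, 0.09, and 0.09 in cortex, hippocampus, and amygdala, against 0.00, -0.01, and 0.03 for all clusters. All of these genes but *Serpina3n* and *Osmr* had mean signals below the range of the negative-control means. The average of *S1pr3* was 0.003 and had the other sign in 4 of 10 alternatives.

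*Serpina3n* was at 8.62, 9.50, and 9.89 in the DZP cortex, against 8.63, 8.77, and 8.41 in the Ctrl cortex. The first DZP array lay within the Ctrl range and the others above it. The difference was 0.73 ± 0.33 (unadjusted p = 0.0435, adjusted p = 0.619). Over 15 alternatives it ran between 0.46 and 1.09, and the lowest adjusted p, 0.252, was reached without DZP number 1. In the amygdala *Serpina3n* was at 8.02, 8.89, and 9.32 in DZP mice, against 8.59, 8.78, and 8.31 in Ctrl mice (0.18), and in the hippocampus the difference was -0.09. All 10 exon-level probe sets had a higher mean in the DZP cortex (median 0.87), 9 of 10 in the DZP amygdala, and 1 of 10 in the DZP hippocampus.

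*Osmr* was at 7.57, 8.11, and 8.46 in the DZP cortex, against 7.91, 8.02, and 7.37 in the Ctrl cortex, and at 7.86, 8.04, and 7.90 in the DZP hippocampus, against 7.51, 7.85, and 7.34 in the Ctrl hippocampus. It was at 7.08, 7.41, and 7.60 in the DZP amygdala, against 7.21, 7.59, and 6.98 in the Ctrl amygdala. Its hippocampal arrays separated by a narrow gap (7.86 against 7.85), and the differences were 0.28, 0.37, and 0.10 in cortex, hippocampus, and amygdala (adjusted p = 0.843, 0.592, and 0.92). *Steap4* was at 5.59, 5.27, and 5.51 in the DZP cortex, against 5.30, 5.13, and 5.32 in the Ctrl cortex. It was at 5.33, 5.67, and 5.32 in the DZP hippocampus, against 5.28, 5.34, and 5.31 in the Ctrl hippocampus, and at 5.52, 5.39, and 5.33 in the DZP amygdala, against 5.04, 5.28, and 5.20 in the Ctrl amygdala. Only the amygdala arrays separated, by 0.24 on average (adjusted p = 0.512), and its average over regions, 0.19, had an adjusted p of 0.329, the lowest of the 28 members for that average.

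**Figure D4:**
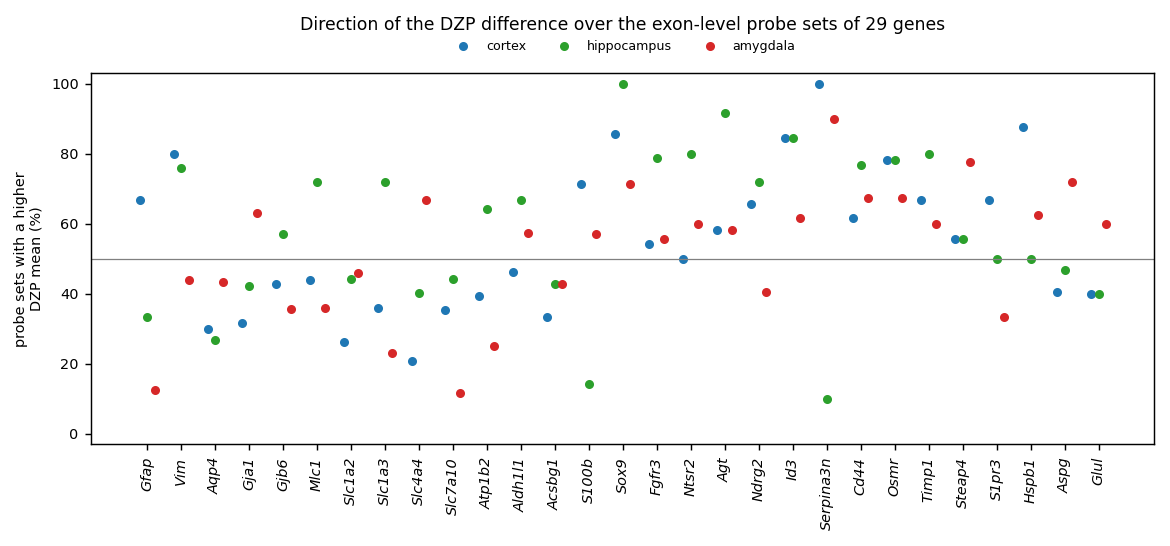
Percentage of the exon-level probe sets of each of 29 genes with a higher DZP mean than Ctrl mean, in cortex, hippocampus, and amygdala, with a line at 50%. *Sox9* in the hippocampus and *Serpina3n* in the cortex reach 100%, and the lowest points are *Serpina3n* in the hippocampus (1 of 10) and *Slc7a10* in the amygdala (4 of 34).

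At the exon level, 814 probe sets of the 29 genes were tested among 719071, and 0 were called in the cortex, hippocampus, or amygdala, against 0%, 0.0533%, and 0.000278% of all probe sets. Without DZP number 3 in all regions, 14 member probe sets were called higher and 9 lower in the hippocampus (2.83% of 814), against 1.69% of all probe sets in the same fit. Of the 23, 6 belong to *Cd44*, all higher, and 4 to *Slc1a3*, 3 of them higher. Of the 20 probe sets of *Glul*, 8 were higher in the DZP cortex, 8 in the DZP hippocampus, and 12 in the DZP amygdala.

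The DZP effect was also compared between regions. The interactions called 0 members for hippocampus minus cortex, amygdala minus cortex, and amygdala minus hippocampus, against 0.00455%, 0%, and 0.0121% of all clusters. At an unadjusted p under 0.05, where the same interactions had 8.96%, 7.39%, and 9.31% of all clusters, they had 1 member, *Mlc1*, whose effect was 0.42 higher in the hippocampus than in the cortex (95% confidence interval 0.15 to 0.69, unadjusted p = 0.00436, adjusted p = 0.312). On the average over regions, 0 members and 0% of all clusters were called, and 4 members were higher and 2 lower at an unadjusted p under 0.05 (4.36% and 5.36% of all clusters).

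Other genes of astrocytes and of their reaction, from lists set beside the members, gave a single call. Of 25 other astrocyte genes, 0 were called in any region, with a higher DZP mean for 8 in the cortex, 19 in the hippocampus, but 7 in the amygdala. *Fabp7*, a fatty acid binding protein, and *Dio2*, a deiodinase that activates thyroid hormone, had the largest mean differences of that list. *Fabp7* was at 10.77, 10.45, and 10.67 in the DZP amygdala, against 11.32, 11.78, and 11.36 in the Ctrl amygdala, without overlap (-0.85, adjusted p = 0.275). The study lists *Fabp7* as lower in the cortex and the amygdala by its criteria, whose P is not adjusted. By qRT-PCR it saw no apparent change of *Fabp7*. *Dio2* was at 8.96, 9.05, and 8.70 in the DZP cortex, against 9.23, 9.70, and 9.87 in the Ctrl cortex, without overlap (-0.70, adjusted p = 0.162). Of 30 other reactive astrocyte genes, 1 was called, *Lcn2*, which encodes the secreted iron-siderophore binder lipocalin 2. It was at 7.49, 8.12, and 8.21 in the DZP hippocampus, against 6.14, 6.15, and 5.94 in the Ctrl hippocampus (1.86 ± 0.32, adjusted p = 0.0414). In the cortex and the amygdala its arrays also did not overlap, with differences of 1.39 and 1.52 (adjusted p = 0.203 and 0.249). The largest difference among the reaction members was 0.73, that of *Serpina3n* in the cortex.

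Markers of other cell types stood beside these differences. In the hippocampus, where 20 of 28 members had higher DZP means, 8 of 10 endothelial, 7 of 7 pericyte and smooth muscle, and 7 of 8 fibroblast markers also had higher DZP means (medians 0.19, 0.20, and 0.21), none called. The summed signal of the 10 endothelial markers was 8028 to 9780 in the DZP hippocampus, against 6991 to 7830 in the Ctrl hippocampus, and that of the 8 fibroblast markers 1592 to 3707 against 1140 to 1770. *Cd44*, *Osmr*, *Timp1*, *Vim* and *Id3* are also made by vascular or fibroblast cells. The summed signal of the 9 microglial markers was 1955 to 2067 in the DZP hippocampus and 1933 to 1977 in the Ctrl hippocampus. In the amygdala all 9 striatal markers and all 9 oligodendrocyte markers had higher DZP means (medians 0.93 and 0.41), with summed striatal signals of 7914 to 21751 in the DZP amygdala and 5448 to 11234 in the Ctrl amygdala. Markers of the regions themselves went mostly the other way. In the DZP amygdala 5 of 6 amygdala markers had a lower mean and 1 a higher one (median -0.27). In the DZP hippocampus 6 of 8 markers of hippocampal fields had a lower mean and 2 a higher one (median -0.29), and 0 were called in either list. Some of these markers had already been reported by the study as changed by DZP in these same arrays. Among them are *Ucn3* of the amygdala list, lower in the amygdala, and *Vwf* of the endothelial list, higher in the cortex and hippocampus. The lists are therefore no independent measure of tissue content. The part of these cell types and regions in the members' values was not tested.

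**Figure D5:**
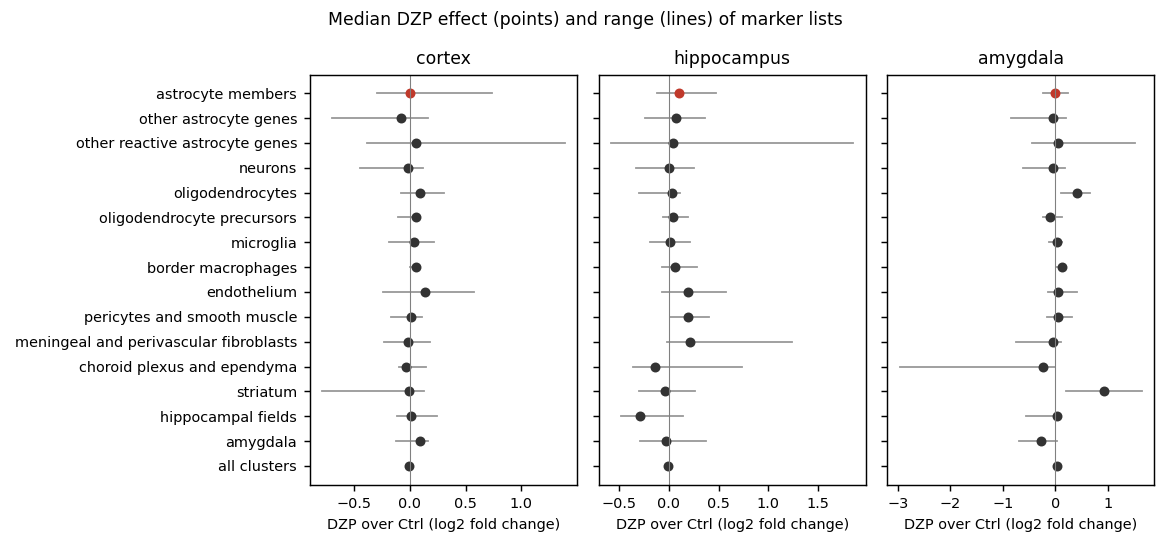
Median log2 difference of DZP over Ctrl (points) and lowest to highest gene (lines) of the 28 members and of marker lists, in cortex, hippocampus, and amygdala, with the median of all clusters in the last row. The members have medians of 0.00, 0.10, and 0.00, and the striatal markers stand apart in the amygdala at 0.93.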

How the data were processed

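Total RNA of cortex, hippocampus, and amygdala from DZP and Ctrl mice was measured on 18 arrays, 3 per treatment and region. Gene-level and exon-level values of every array are separate samples, 36 together. The deposited values are log2 signal intensities, for which the submitters' processing notes name Affymetrix Expression Console 1.4.1. The sources used here do not give the summarisation or the normalization, and the values were used as deposited. Groups follow the treatment and region in the labels. Nothing says which arrays share a mouse, so p-values measure the spread between arrays.

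The 6732 control probe sets were left out, and 65956 clusters were tested, of which 30646 carry 1 symbol, 2168 several and 33142 none. limma 3.58.1 in R 4.3.3 (with the data.table package, version 1.17.8) was fitted to 18 arrays in 6 groups with empirical Bayes moderation, and p-values were adjusted by Benjamini-Hochberg over all clusters, or over all 719071 exon-level probe sets, at 0.05. The average effect used the mean over regions for each treatment and number, 3 against 3. No exact permutation test was used, since 3 arrays against 3 allow no p below 0.1. The number of arrays limits the precision. The scripts were tested on simulated data.

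Values in every array were given for the 8 members with the largest mean DZP difference over regions and the 6 with the largest region difference in Ctrl. The members and lists were chosen with earlier results of these data known. Alternatives covered scaling, the arrays and clusters in the fit, moderation, array weights, a replicate block, each left-out number, exon-level medians, and the ANOVA of the methods. Sequences come from RefSeq, build GRCm38.p6. Promoters of *Aqp4*, *Sox9* and *Atp1b2* were not used here.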

Additional observations from a re-analysis of the deposited data

Results flagged for a closer look

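*Mlc1* was the member whose DZP arrays lay wholly on opposite sides of the Ctrl arrays in different regions. Its log2 difference was -0.192 in the cortex, with arrays at 11.50, 11.54, and 11.68 in DZP mice, against 11.76, 11.80, and 11.73 in Ctrl mice. In the hippocampus it was 0.229, with arrays at 12.27, 12.16, and 12.06 in DZP mice, against 11.94, 11.86, and 12.01 in Ctrl mice. The difference between these effects was tested by the limma interaction and did not pass (0.421, adjusted p = 0.312).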

How the results depend on the processing

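In 15 alternatives for each region comparison, none of 719 values of the 48 member calls changed sign, 606 stayed past the threshold and 113 did not, and 18 calls held under every alternative, among them *Gfap* and *Serpina3n* in both contrasts with the hippocampus and *Agt* in the amygdala against the cortex, each in both treatments. Members called by DZP or by an interaction stayed at 0 in every gene-level alternative. For the hippocampus against the cortex, the count of members called was 8 in Ctrl mice (5 from exon-level medians, and 6 to 8 when each number was left out in turn) and 12 in DZP mice (7 with only the arrays compared). For the amygdala against the hippocampus it was 5 in DZP mice (8 after median centring, 9 after quantile normalization, 3 to 5 with each number left out) and 7 in Ctrl mice (4 after centring, 3 with only the arrays compared, 4 from exon-level medians, 2 to 7 with each number left out). For the amygdala against the cortex in DZP mice it was 10, and 4 to 10 with each number left out. The causes were not tested. The exon-level count in the hippocampus was 0, and 0 to 23 with each number left out, the 23 without DZP number 3.

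Median centring moved the median of all clusters from 0.077 to -0.036 for the amygdala over the cortex in DZP mice, from 0.051 to -0.05 for the amygdala over the hippocampus in DZP mice, and from 0.041 to -0.062 for the DZP effect in the amygdala minus that in the hippocampus. Same-numbered arrays of the 2 treatments correlated in their deviations from the group means with r of -0.081 to 0.268 over 9 pairs, 2 of them over 0.1. Same-numbered arrays of different regions within a treatment had r of -0.137 to 0.535 over 18 pairs (median 0.09, 9 over 0.1), and different-numbered ones a median of -0.042 (5 of 36 over 0.1). Not every pair passed 0.1, so the main fit of 18 arrays did not pair the arrays by number, and shared mice between regions cannot be told from these values. The average over regions did join arrays of different regions by number. It counts each mouse once only if the number marks the mouse, which the labels do not say. With the replicate block, members called were 11, 10, and 6 in DZP mice and 8, 7, and 7 in Ctrl mice (hippocampus over cortex, amygdala over cortex, amygdala over hippocampus), and 0 for every DZP comparison. That block joins arrays of the same number from both treatments, which are different mice, so it does not account for shared mice. A random block by treatment and number was also fitted, with a correlation of 0.00714 within blocks. No member has several clusters, so that alternative was not run. Over the alternatives, 15, 16, and 12 of 28 members kept the sign of their DZP difference in cortex, hippocampus, and amygdala.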
